A study of Mus musculus with 12 samples.

Results

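Bone morphogenetic proteins (BMPs) are secreted ligands of the TGF-β superfamily. They bind pairs of type I and type II serine/threonine kinase receptors, which phosphorylate SMAD1, SMAD5 and SMAD9, and these enter the nucleus with SMAD4 and switch on target genes, among them the ID genes. ID proteins hold a helix-loop-helix domain without a DNA-binding region and keep E proteins from binding DNA. Gremlin 1 (GREM1) is a secreted antagonist that binds BMP ligands outside the cell, and it is known as a product of tissue fibroblasts. The 9 genes described here are Grem1 (antagonist), Bmp2 and Bmp4 (ligands), Bmpr1a and Bmpr2 (a type I and a type II receptor), Smad6 (an inhibitory SMAD) and Id1, Id2 and Id3 (target genes). They were taken by symbol from a count table of 39179 genes, and all 9 were in it. They were chosen with their levels in these libraries known, so their levels and differences are given as a description, with no p-value.

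The levels were measured by 3′ mRNA sequencing in mouse pancreatic stellate cells (PSCs), labelled as C57BL/6, of 1 clone (PSC C2) that was immortalised with SV40 and transduced with mCherry. PSCs were grown for 72 h alone (mono-PSCs), with EGFP-labelled pancreatic cancer cells (PCCs; 2W-PSCs) or with PCCs and TagBFP-labelled macrophages (MØs) of the ATCC line TIB-71 (3W-PSCs). The PCCs were a mouse line whose alleles include p48-Cre, p53 fl/+ and ROSA26-LSL-rtTA-IRES-GFP. All cultures were kept in Minimal Medium with little dialysed serum and were seeded at the same total cell number, and the PSCs were then sorted on mCherry. Each culture gave 4 libraries, which the design text calls biological replicates; they come from the 1 clone, so the spread between them is that between flasks.

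The libraries held between 4561817 and 8093368 counts. Replicate 2 of the 2W-PSCs was the shallowest and stood apart. Its rank correlations with the other 2W-PSCs were 0.762 to 0.875 over 8331 genes, while the remaining same-culture pairs reached 0.911 to 0.981. Fitted results that rest on this library are therefore given with and without it, and marker means that rest on it are given with its value. The summed level of 10 stellate cell and fibroblast markers was 9150 to 12920 CPM (counts scaled to a common library size) for PSCs alone. It was 13009 to 19986 CPM with PCCs and 7590 to 9481 CPM with PCCs and MØs, so every 3W library lay below every 2W library. Its largest parts were Sparc, Col1a1 and Col1a2, and the 10 markers did not move together. Mean Sparc went from 6737 CPM with PCCs to 2413 CPM with MØs added, where replicate 2 of the 2W-PSCs was highest at 11208 CPM. The 2W libraries held 4367 CPM or more of Sparc and the 3W libraries at most 2709 CPM. Col1a1, Col1a2, Col3a1, Vim and Thy1 had lower means with MØs too. Pdgfra instead went up from 14.4 to 34.6 CPM, and Fn1 and Des had higher means. Pdgfrb averaged 125 and 123 CPM, but its 2W libraries spread from 29.7 CPM in replicate 2 to 194 CPM, and its 3W libraries from 103 to 149 CPM. Des, a stellate cell marker, was at most at a mean of 1.68 CPM in any culture. Of 10 macrophage markers, 9 were in the table, and they summed to 9.56 to 11.3 CPM when PSCs grew alone, to 12.5 to 17.6 CPM with PCCs and to 34.1 to 63.0 CPM with PCCs and MØs. Ptprc, a marker of all leukocytes, and Tyrobp, which macrophages and other immune cells express, were at 0 in mono-PSCs and 2W-PSCs. In 3W-PSCs they averaged 0.839 and 0.896 CPM, with ranges of 0 to 2.59 CPM and 0 to 2.85 CPM. Both were highest in replicate 4 of the 3W-PSCs (20 and 22 counts), so these means rest mostly on that library. Mpeg1, a gene of macrophages and other phagocytes, averaged 0.335, 0.469 and 6.98 CPM in mono-PSCs, 2W-PSCs and 3W-PSCs, while Cd14, which fibroblasts can express too, made up 22.8 CPM of the 3W sum. Csf1r, of the same list, averaged 0.0869, 2.35 and 2.31 CPM in that order. Its 2W libraries spread from 0.140 to 6.88 CPM, highest in replicate 2 (28 counts), and its 3W libraries from 1.95 to 3.13 CPM. The 2W mean of Csf1r thus rests on replicate 2, and nothing is read from how the 2W and 3W means compare. The sum of 10 epithelial markers was 0.481 to 2.43 CPM for mono-PSCs, 73.5 to 144 CPM for 2W-PSCs and 49.6 to 88.5 CPM for 3W-PSCs, with Krt18 and Cdh1 present in both co-cultures, Epcam at 0 in 2W-PSCs and Cldn4 at 0 in every library. These marker sums move with the cultures compared below, and their part in the differences of the 9 genes was not tested.

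Grem1 and Bmp4, an antagonist and a ligand it binds, differed in opposite directions across the cultures. The 250 bases before their transcription starts (RefSeq, GRCm38.p6) are printed because these are the genes on which the results turn. The sequences run 5′ to 3′ along the minus strand, on which both genes lie. Capitals mark matches, on either strand, to GGCGCC, the core of the GC-rich sites bound by SMAD1 and SMAD5, and to GTCTG, which holds the SMAD-binding letters (written CAGAC where it lies on the other strand).
Grem1, chr2:113758649-113758898: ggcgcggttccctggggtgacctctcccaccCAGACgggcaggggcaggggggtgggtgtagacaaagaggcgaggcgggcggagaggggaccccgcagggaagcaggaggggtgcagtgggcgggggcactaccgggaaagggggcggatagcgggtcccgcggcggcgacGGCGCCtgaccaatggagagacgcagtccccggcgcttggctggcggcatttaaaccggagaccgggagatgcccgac
Bmp4, chr14:46390670-46390919: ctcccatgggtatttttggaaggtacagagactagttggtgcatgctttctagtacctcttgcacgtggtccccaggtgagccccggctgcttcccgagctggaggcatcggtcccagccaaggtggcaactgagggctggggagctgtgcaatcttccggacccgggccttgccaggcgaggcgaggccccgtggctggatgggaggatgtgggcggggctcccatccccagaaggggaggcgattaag
The Grem1 stretch was 72.0% G or C and the Bmp4 stretch 63.2%. Grem1 held GGCGCC with its first base 78 bases before the start and CAGAC 219 bases before it and again 18 bases after it, and Bmp4 held neither. Promoter sequences (250 bases before to 50 after the start) were at hand for 7 of the 9 genes. GGCGCC was also found in those of Bmpr1a, Bmpr2 and Id2 (198, 105 and 231 bases before the RefSeq start). GTCTG in either orientation was found in that of Id3 (167 and 68 bases before its RefSeq start). By the GENCODE positions given below, the stretches searched for Bmpr1a, Bmpr2, Id2 and Id3 lie within the gene. Their matches are thus before a RefSeq start but inside the annotated gene. A STAT-type motif, TTCNNNGAA, was found in none of the 7, nor was any of the motifs in that of Smad6. Among 32851 RefSeq mouse promoters of the same length, 11.9% held GGCGCC, 49.6% GTCTG and 8.30% TTCNNNGAA. No 2 of the matches overlapped each other. These matches describe the letters and were not tested as binding sites.

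**Figure D1:**
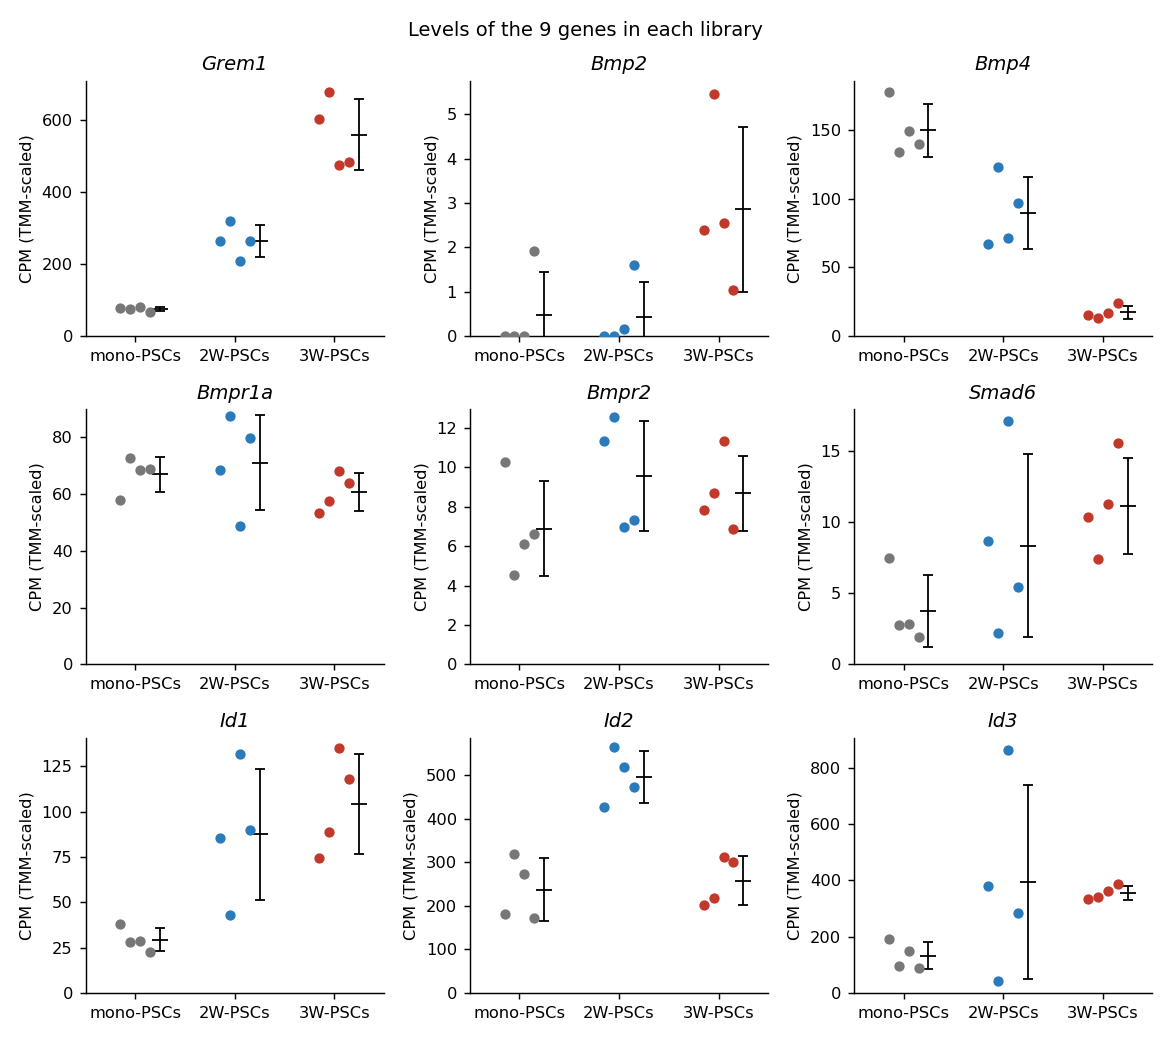
Levels of the 9 genes as TMM-scaled CPM on linear axes from 0, 1 panel per gene with its own scale. Each point is 1 library (4 per culture, replicates 1 to 4 from left to right), and the black bar beside each culture is the mean with its SD, cut off at 0. Grem1 was lowest in mono-PSCs and highest in 3W-PSCs without overlap, Bmp4 had the opposite order, and Id3 of the 2W-PSCs spread from 43.5 to 864 CPM.

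Levels are given in CPM scaled by the trimmed mean of M-values (TMM) over the 12 libraries. Because the 3′ kit gives about one fragment per transcript, CPM values of different genes were set side by side without a correction for length. Differences are log2 fold changes from edgeR. Their standard errors (SE) are not an output of its test but were derived as the size of the fold change divided by the square root of its F value. "Past the threshold" means a Benjamini-Hochberg adjusted p under 0.05 over all genes of that comparison. In sorted bulk RNA, a lower share of cells with a transcript and less of it per cell cannot be told apart.

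Grem1 (ENSMUSG00000074934, chromosome 2, 113746164 to 113758646 in GRCm38, minus strand) was higher with each cell type added. In mono-PSCs it was at 77.4, 75.1, 81.9 and 67.1 CPM, in 2W-PSCs at 263, 319, 210 and 265 CPM, and in 3W-PSCs at 602, 678, 474 and 485 CPM. The 3 cultures did not overlap: every 2W library lay above every mono library, and every 3W library above both. Its log2 fold change was 1.83 (SE 0.194) in 2W-PSCs against mono-PSCs, 1.08 (SE 0.189) in 3W-PSCs against 2W-PSCs and 2.89 (SE 0.168) in 3W-PSCs against mono-PSCs. With macrophages present, Grem1 was at 2.11 times its level with PCCs alone and at 7.41 times its level in mono-culture. Without replicate 2 of the 2W-PSCs, the library with the most Grem1 of its culture, the values were 1.72 against mono-PSCs and 1.18 for 3W-PSCs against 2W-PSCs.

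Bmp4 (ENSMUSG00000021835, chromosome 14, 46383520 to 46390669, minus strand) had the opposite order. Its levels were 178, 134, 149 and 140 CPM for mono-PSCs, 67.2, 124, 71.1 and 97.1 CPM in 2W-PSCs, and 15.1, 13.5, 16.7 and 23.7 CPM in 3W-PSCs. Again the cultures did not overlap, and the 3W libraries were far below the lowest 2W library. Bmp4 was 5.20-fold lower in 3W-PSCs than in 2W-PSCs (log2 fold change −2.38, SE 0.257) and 8.74-fold lower than in mono-PSCs (−3.13, SE 0.194), both past the threshold. Between 2W-PSCs and mono-PSCs the log2 fold change was −0.72 (SE 0.227) and not past it, and it became −0.93 and past the threshold without replicate 2 of the 2W-PSCs, the library with the most Bmp4 of its culture. In the GENCODE annotation, 89 of the 2248 exon bases of Bmp4 lie opposite Gm15217, a gene on the other strand, whose reads cannot be told apart from those of Bmp4 unless counting used the strand.

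The counts of both genes within 1 library give a ratio that does not depend on scaling between libraries. Mono-PSCs held 0.435, 0.561, 0.549 and 0.480 Grem1 counts per Bmp4 count, so the ligand was the more abundant transcript in each of them. In 2W-PSCs the ratio was 3.91, 2.58, 2.95 and 2.73, and in 3W-PSCs it was 39.8, 50.4, 28.5 and 20.4. The antagonist was thus the more abundant transcript in all 8 co-culture libraries, with a mean ratio of 3.04 ± 0.597 (SD, n = 4) in 2W-PSCs and 34.8 ± 13.1 (SD, n = 4) in 3W-PSCs, against 0.506 ± 0.0591 (SD, n = 4) in mono-PSCs.

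**Figure D2:**
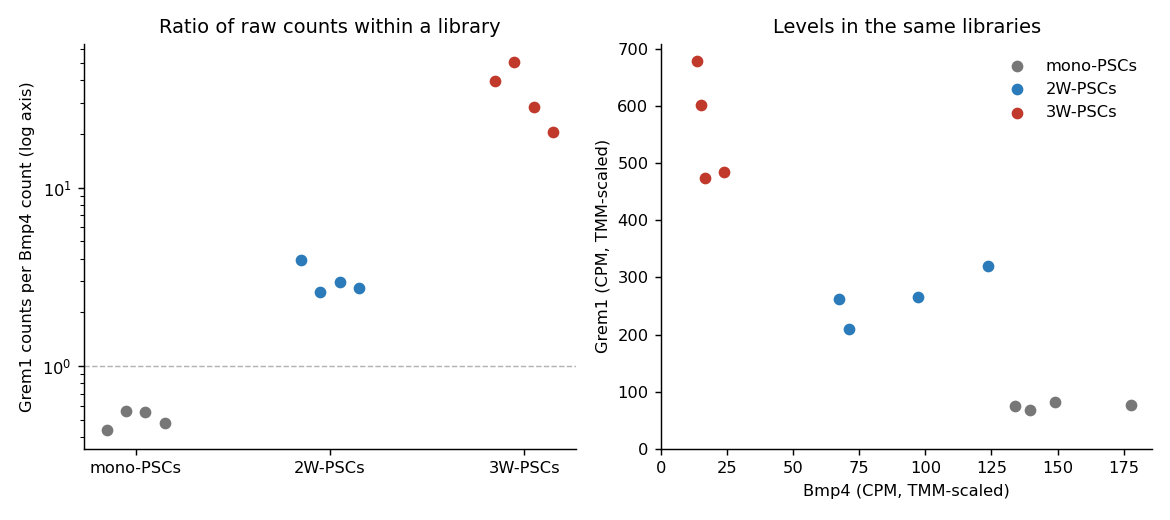
Left, raw Grem1 counts per raw Bmp4 count in each of the 12 libraries by culture, on a log axis with a dashed line at equal counts; right, the TMM-scaled CPM of both genes in the same libraries on linear axes. The mono-PSC ratios lie below 1 (0.435 to 0.561), the 2W-PSC ratios at 2.58 to 3.91 and the 3W-PSC ratios at 20.4 to 50.4.

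Bmp2 (ENSMUSG00000027358, chromosome 2, 133552159 to 133562885, plus strand), the other ligand, was near the limit of detection. Mono-PSCs held 0, 0, 0 and 16 counts and 2W-PSCs 0, 0, 1 and 10 counts, both lists in the order of the replicates. In 3W-PSCs there were 18, 47, 20 and 8 counts, or 2.39, 5.46, 2.54 and 1.04 CPM. A count of 0 allows up to 3 counts, which is 0.348 to 0.737 CPM at these depths, for counting error only. Only in 3W-PSCs did every library hold the transcript, yet replicate 4 of the 3W-PSCs was below replicate 4 of both other cultures. The gene passed the filter on low counts only in the comparisons with 3W-PSCs, where it was not past the threshold (log2 fold changes 2.6, SE 0.947, against 2W-PSCs and 2.27, SE 0.872, against mono-PSCs, which depend on the values near 0). It was past it when replicate 4 of the 2W-PSCs, or replicate 4 of the mono-PSCs, was left out of the respective comparison. Without that replicate the culture held at most 1 count per library. Bmp2 passed the filter only with the 3W libraries, where its mean was highest, so these calls are no support beyond the levels. The sum of Bmp2 and Bmp4 was 151 ± 19.1 CPM in mono-culture, 90.2 ± 26.3 CPM with PCCs and 20.1 ± 3.19 CPM with PCCs and MØs (SD, n = 4 each), so the additional Bmp2 was small beside the Bmp4 no longer counted.

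The receptors were the members that differed least. Bmpr1a (ENSMUSG00000021796, chromosome 14, 34410734 to 34503341, minus strand), which encodes the type I receptor ALK3, was at 57.9, 72.5, 68.4 and 68.6 CPM for mono-PSCs, 68.4, 87.4, 48.9 and 79.5 CPM for 2W-PSCs and 53.1, 57.4, 68.2 and 63.9 CPM in 3W-PSCs. All 3 ranges overlapped. Its log2 fold changes were 0.11 (SE 0.209) in 2W-PSCs against mono-PSCs, −0.23 (SE 0.197) in 3W-PSCs against 2W-PSCs and −0.14 (SE 0.152) in 3W-PSCs against mono-PSCs. Gm17110 lies opposite 290 of its 6351 exon bases. Bmpr2 (ENSMUSG00000067336, chromosome 1, 59763400 to 59879014, plus strand), the type II receptor, was a low transcript, with 4.56 to 10.3 CPM for mono-PSCs, 6.98 to 12.5 CPM for 2W-PSCs and 6.87 to 11.3 CPM for 3W-PSCs. Its log2 fold changes of 0.48 (SE 0.360), −0.13 (SE 0.293) and 0.32 (SE 0.310), in the same order of comparisons, were within about 1.5 times their standard errors. Neither receptor was past the threshold in any comparison, which does not show that their levels were equal.

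Smad6 (ENSMUSG00000036867, chromosome 9, 63953076 to 64022059, minus strand), whose product binds BMP receptors and is itself a BMP target, was another low transcript. It was at 7.48, 2.78, 2.88 and 1.92 CPM for mono-PSCs, 8.69, 2.21, 17.1 and 5.43 CPM for 2W-PSCs and 10.4, 7.43, 11.3 and 15.6 CPM in 3W-PSCs. Replicate 1 of the mono-PSCs reached the lowest 3W library, and the 2W libraries overlapped both other cultures. Its log2 fold change was 1.57 (SE 0.397) in 3W-PSCs against mono-PSCs, past the threshold, and 1.19 (SE 0.601) in 2W-PSCs against mono-PSCs and 0.39 (SE 0.482) in 3W-PSCs against 2W-PSCs, neither past it. Without replicate 2 of the 2W-PSCs, which held the least Smad6 of its culture, the last 2 values were 1.49 and 0.09.

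The 3 ID genes did not share a pattern. Id1 (ENSMUSG00000042745, chromosome 2, 152736251 to 152737410, plus strand) was at 37.9, 27.9, 28.4 and 22.6 CPM for mono-PSCs, 85.3, 43.2, 132 and 89.9 CPM for 2W-PSCs and 74.3, 88.9, 135 and 118 CPM in 3W-PSCs. Every co-culture library lay above every mono library, and the co-cultures overlapped each other. Its log2 fold change against mono-PSCs was 1.61 (SE 0.305) in 2W-PSCs and 1.83 (SE 0.210) in 3W-PSCs, both past the threshold, and 0.24 (SE 0.30) in 3W-PSCs against 2W-PSCs. In the fit of 2W-PSCs against mono-PSCs, leaving out 1 library at a time kept Id1 past the threshold in 2 of 8 fits, those without replicate 1 of the mono-PSCs and without replicate 2 of the 2W-PSCs, although its log2 fold change stayed between 1.34 and 1.82.

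Id2 (ENSMUSG00000020644, chromosome 12, 25093799 to 25097140, minus strand) was highest in the culture in between. It was at 180, 320, 274 and 171 CPM for mono-PSCs, 426, 565, 518 and 473 CPM for 2W-PSCs and 201, 219, 311 and 300 CPM for 3W-PSCs. The 2W libraries stood above all others, while mono-PSCs and 3W-PSCs overlapped. Its log2 fold change was 1.10 (SE 0.235) in 2W-PSCs against mono-PSCs, −0.95 (SE 0.190) in 3W-PSCs against 2W-PSCs and 0.13 (SE 0.205) in 3W-PSCs against mono-PSCs. The first was past the threshold in the comparison as made but in only 2 of 8 fits that left out 1 library, those without replicate 2 of either culture, with values of 0.96 to 1.25 over all alternatives; the second was lost only without replicate 2 of the 3W-PSCs, where it was −0.87.

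Id3 (ENSMUSG00000007872, chromosome 4, 136143497 to 136145755, plus strand) was at 192, 95.5, 150 and 90.2 CPM in mono-PSCs and at 332, 340, 363 and 385 CPM in 3W-PSCs, a narrow range. In 2W-PSCs it was at 379, 43.5, 864 and 285 CPM, so that replicate 2 lay below every mono library and replicate 3 above every 3W library. Against mono-PSCs, the difference in 3W-PSCs was 1.42 on the log2 scale (SE 0.210), past the threshold. That of 2W-PSCs against mono-PSCs was 1.60 (SE 0.608) and not past it, and without replicate 2 of the 2W-PSCs it was 1.96 (SE 0.339) and past it. That of 3W-PSCs against 2W-PSCs was −0.15 (SE 0.583), and −0.53 (SE 0.268) without replicate 2. The same library held the least Id1 and Smad6 and the most Id2, Grem1, Bmp4, Bmpr1a and Bmpr2 of the 2W-PSCs.

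Together the 3 ID genes came to 397 ± 77.6 CPM for mono-PSCs, 976 ± 373 CPM for 2W-PSCs and 717 ± 104 CPM for 3W-PSCs (SD, n = 4 each). Id2 made up 44.0% to 72.1% of their counts in mono-PSCs, 34.2% to 86.7% for 2W-PSCs and 33.2% to 38.4% in 3W-PSCs. The E proteins that ID proteins bind were present throughout. Tcf4 was at 281 ± 41.2, 276 ± 52.5 and 280 ± 35 CPM for mono-PSCs, 2W-PSCs and 3W-PSCs (SD, n = 4 each), and none of Tcf3, Tcf4 and Tcf12 was called in any comparison. This does not show equal levels. Tcf12 was at 64.8 to 98.1 CPM in 2W-PSCs and 98.2 to 128 CPM in 3W-PSCs, without overlap, a log2 fold change of 0.51 (SE 0.171; edgeR adjusted p = 0.0844).

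**Figure D3:**
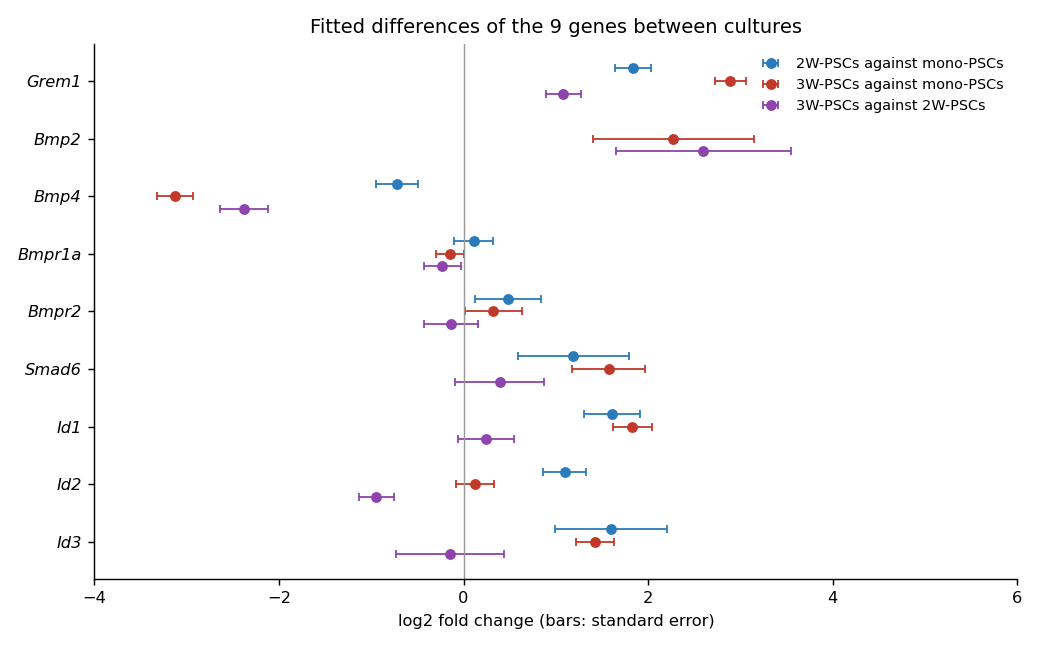
Log2 fold changes of the 9 genes with their standard errors (horizontal bars) in 2W-PSCs against mono-PSCs, 3W-PSCs against mono-PSCs and 3W-PSCs against 2W-PSCs, from edgeR with 4 libraries per culture. Grem1 lies right of 0 and Bmp4 left of 0 in all 3, Id2 changes side between the first and the last, and Bmp2 has no value in 2W-PSCs against mono-PSCs because it did not pass the filter on low counts.

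Ordered by mean level, Id2, Bmp4 and Id3 led in mono-PSCs at 236 ± 72.4, 150 ± 19.4 and 132 ± 48.2 CPM (SD, n = 4 each), with overlapping ranges. In 2W-PSCs the order was Id2, Id3 and Grem1, at 495 ± 59.6, 393 ± 344 and 264 ± 44.7 CPM, where Id2 and Grem1 were apart and Id3 overlapped both. In 3W-PSCs Grem1 led at 560 ± 97.9 CPM, above Id3 at 355 ± 24.2 and Id2 at 258 ± 55.7 CPM, each apart from the next. Bmp4 was at rank 2 in mono-PSCs, at rank 4 in 2W-PSCs, where Id1 and Bmpr1a lay within its spread, and at rank 6 in 3W-PSCs.

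Of the 9 genes, 3 were past the threshold in 3W-PSCs against 2W-PSCs, Grem1 higher and Bmp4 and Id2 lower, where 10.7% of all 11513 genes tested were called (5.73% higher and 4.95% lower). In 2W-PSCs against mono-PSCs, 8 of the 9 were tested and Grem1, Id1 and Id2 were past it, all higher, where 0.991% of 11199 genes were called (0.839% higher and 0.152% lower). In 3W-PSCs against mono-PSCs, Grem1, Smad6, Id1 and Id3 were past it in the higher direction and Bmp4 in the lower, where 26.4% of 11551 genes were called (13.4% higher and 13.0% lower). Since the genes were chosen on these data, nothing is read from these counts. The comparisons share libraries, mono-PSCs in 2 of them, 2W-PSCs in 2 and 3W-PSCs in 2, so the 3 values of a gene are not independent.

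The other genes of the pathway were read from a list of 61 genes (ligands, receptors and co-receptors, SMADs and their degraders, antagonists and modulators, further targets, and E proteins), drawn up with earlier results of these data known. In 3W-PSCs against 2W-PSCs, 33 of the 61 were tested and 9 were called, 6 higher and 3 lower, with a median log2 fold change of 0.12, against 0.0025 over all genes tested, of which 10.7% were called (5.73% higher and 4.95% lower). In 2W-PSCs against mono-PSCs, 1 of 30 was called, with a median of 0.21 against 0.02 over all genes, of which 0.991% were called. In 3W-PSCs against mono-PSCs, 11 of 33 were called, 9 higher and 2 lower, with a median of 0.24 against 0.01 over all genes, of which 26.4% were called (13.4% higher and 13.0% lower). Nothing particular to the list is read from these shares.

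Among the antagonists and modulators, Bmper, a secreted BMP-binding protein, rose in 3W-PSCs by 1.41 (SE 0.313) against 2W-PSCs (adjusted p = 0.0166) and by 2.25 (SE 0.298) against mono-PSCs (adjusted p = 2.66e-05), where it reached 11.3 to 21.8 CPM, beside 2.38 to 4.50 CPM in mono-culture and 3.97 to 9.58 CPM with PCCs.

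Fstl1, a secreted follistatin-like protein that binds BMP4, was the most abundant gene of the antagonist list and was, like Id2, at its highest in 2W-PSCs. It averaged 920 ± 133 CPM in mono-culture, 1540.3 ± 206 CPM with PCCs and 873 ± 72.1 CPM with PCCs and MØs (SD, n = 4 each). Fstl1 fell by 0.82 (SE 0.166) on the log2 scale in 3W-PSCs against 2W-PSCs (adjusted p = 0.0105), while its value of 0.77 (SE 0.204) in 2W-PSCs against mono-PSCs had an adjusted p of 0.138. Fstl3, which binds activins and some BMPs, fell in 3W-PSCs by 0.73 (SE 0.171) against 2W-PSCs (adjusted p = 0.0215) and by 0.54 (SE 0.175) against mono-PSCs (adjusted p = 0.0307). Prss57 lies opposite 1157 of the 2445 exon bases of Fstl3, so its reads may be those of either gene. In all, 3 of the 12 antagonists and modulators tested were called between 3W-PSCs and 2W-PSCs, 1 higher and 2 lower. Of all genes tested in that comparison, 10.7% were called (5.73% higher and 4.95% lower), and nothing particular to these genes is read from the count. Noggin (Nog), another BMP antagonist, averaged at most 0.318 CPM in any culture, and chordin (Chrd) at most 3.67 CPM. Chrd was highest in mono-PSCs, at 3.49 to 3.78 CPM, against 0 to 2.86 CPM in 2W-PSCs and 1.06 to 2.42 CPM in 3W-PSCs. At these low counts it was not called in any comparison.

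Of the 13 other ligands listed, only Bmp3, which is known to oppose other BMPs, was tested, in 3W-PSCs against mono-PSCs. It had 17, 26, 8 and 24 counts in mono-PSCs, 2, 0, 0 and 0 in 2W-PSCs and 0 in each of the 4 3W libraries. Bmp3 was at least 7.8-fold lower in 3W-PSCs than in mono-PSCs, taking 3 counts per library as the limit of a 0. It was called there, but passed the filter on low counts only through the mono libraries, so its call is given without a p-value.

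Of the receptors and co-receptors, Acvr1, which encodes the type I receptor ALK2 and had the highest mean of its list over the 12 libraries, was at 5.35 to 16.2 CPM in mono-PSCs and 22.7 to 27 CPM in 3W-PSCs. Acvr1 rose by 1.32 (SE 0.274) in 3W-PSCs against mono-PSCs (adjusted p = 0.00162). In 2W-PSCs it was at 14.0, 1.23, 28.4 and 7.67 CPM, with replicate 2 lowest, as for Id3 and Smad6. Rgmb, a BMP co-receptor, rose in 3W-PSCs by 2.17 (SE 0.596) against 2W-PSCs (adjusted p = 0.0411) and by 1.71 (SE 0.448) against mono-PSCs (adjusted p = 0.00885), from 0.160 to 3.13 CPM in the other cultures to 3.89 to 6.62 CPM. Rgmb passed the filter on low counts only through the 3W libraries, where it was high, so these p-values are no support beyond the levels. Bmpr1b, another type I BMP receptor, averaged at most 0.342 CPM.

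Among SMADs and their degraders, 3 of 9 were called between 3W-PSCs and 2W-PSCs and 4 of 9 between 3W-PSCs and mono-PSCs, all of them higher in 3W-PSCs, where 5.73% and 13.4% of all genes tested were called higher. Smurf1, a ubiquitin ligase that marks BMP-responsive SMADs and receptors for breakdown, was at 13.7 to 31.6 CPM for mono-PSCs, 27.3 to 35.6 CPM for 2W-PSCs and 63.0 to 78.0 CPM for 3W-PSCs. Smurf1 rose in 3W-PSCs by 1.13 (SE 0.164) against 2W-PSCs (adjusted p = 0.00179) and by 1.52 (SE 0.224) against mono-PSCs (adjusted p = 7.91e-05). Smad7, an inhibitory SMAD like Smad6, rose by 0.89 (SE 0.238; adjusted p = 0.0374) and 1.59 (SE 0.228; adjusted p = 6.10e-05), to 43.6 to 87.4 CPM in 3W-PSCs. Smad1, which carries the BMP signal, rose by 0.63 (SE 0.183; adjusted p = 0.0486) and 0.71 (SE 0.176; adjusted p = 0.00652), to 47.0 to 61.5 CPM.

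Skil, a repressor that binds SMADs, was the 1 gene of the list called between 2W-PSCs and mono-PSCs. It was at 28, 19.2, 27 and 29.1 CPM for mono-PSCs, 61.2, 56.7, 67.9 and 58.8 CPM for 2W-PSCs and 80.5, 64.1, 70.5 and 50.7 CPM in 3W-PSCs. Skil rose by 1.26 (SE 0.203) in 2W-PSCs (adjusted p = 0.00834) and by 1.35 (SE 0.190) in 3W-PSCs (adjusted p = 4.80e-05) against mono-PSCs. Smad4, the partner SMAD of both BMP and TGF-β signals and the highest of this list by its mean over the 12 libraries, averaged 94.7 ± 10.9, 87.4 ± 11.4 and 109 ± 7.64 CPM (SD, n = 4 each) in mono-PSCs, 2W-PSCs and 3W-PSCs. Smad4 was not called in the comparisons as made, but without replicate 2 of the 2W-PSCs its log2 fold change of 0.41 (SE 0.134) in 3W-PSCs against 2W-PSCs was past the threshold (edgeR adjusted p = 0.0468), against 0.32 (SE 0.152) with it.

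Of the other BMP target genes, 4 were tested and differed among themselves. Gata2, a transcription factor gene, rose in 3W-PSCs by 1.60 (SE 0.341) against 2W-PSCs (adjusted p = 0.0136) and by 1.66 (SE 0.372) against mono-PSCs (adjusted p = 0.00302). Runx2, an osteogenic transcription factor gene with the highest mean of its list over the 12 libraries, rose by 1.35 (SE 0.221) in 3W-PSCs against mono-PSCs (adjusted p = 0.000225), from 13.0 to 25.2 CPM to 38.3 to 55.1 CPM. Against 2W-PSCs its log2 fold change of 0.50 (SE 0.257) was not past the threshold (adjusted p = 0.248), and without replicate 2 of the 2W-PSCs, which held the most Runx2 of its culture, it was 0.80 (SE 0.176) and past it (adjusted p = 0.00516). Runx2os1 lies opposite 519 of the 8837 exon bases of Runx2. Atoh8, a helix-loop-helix factor gene, fell in 3W-PSCs against 2W-PSCs by 1.42 (SE 0.394; adjusted p = 0.0427), with 20.6 to 50.3 CPM for 2W-PSCs and 5.71 to 18.3 CPM in 3W-PSCs, and by 1.09 without replicate 2 of the 2W-PSCs, where it was highest.

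**Figure D4:**
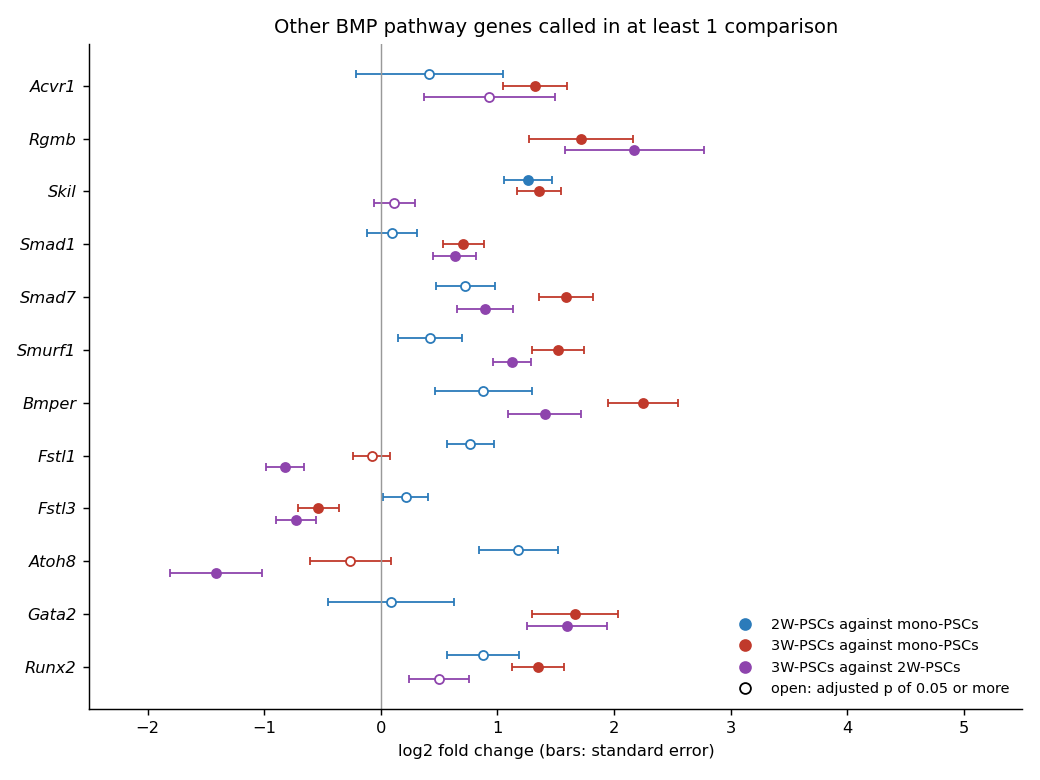
Log2 fold changes with standard errors (horizontal bars) of 12 other BMP pathway genes called in at least 1 comparison, from edgeR with 4 libraries per culture. Filled points have an adjusted p under 0.05 and open points do not; Bmp3 is left out because all its 3W libraries were at 0, and Rgmb has no value in 2W-PSCs against mono-PSCs. Most filled points lie right of 0, with Fstl1, Fstl3 and Atoh8 to the left.

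Calls between 3W-PSCs and 2W-PSCs differed in how often they were kept when the same libraries were fitted otherwise. For the 9 genes, which were chosen on these libraries, such counts are a description and no further support. Over 14 alternative fits (another scaling, test, filter, sample set or block, and each library left out), Grem1, Bmp4 and Smurf1 stayed past the threshold in all 14. Of the others, Fstl1 stayed past it in 13, Gata2 in 12, Bmper in 11, Smad7 in 9, Atoh8 and Fstl3 in 8 and Smad1 in 5, all of 14, and Rgmb in 6 of 13. Rgmb passed the filter on low counts only through the 3W libraries, so its fits are no support beyond the levels. Fstl1 was lost without replicate 1 of the 3W-PSCs (adjusted p = 0.0508), Gata2 without replicate 1 or 2 of the 3W-PSCs (up to 0.0565) and Bmper without either of these or replicate 4 of the 2W-PSCs (up to 0.0657). The highest adjusted p over the alternatives was 0.115 for Smad7, 0.140 for Atoh8, 0.0759 for Fstl3, 0.168 for Smad1 and 0.124 for Rgmb. In 3W-PSCs against mono-PSCs, Grem1, Bmp4, Smad6 and Id1 stayed past it in all 14, Id3 in 13 and Fstl3 in 7.

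The genes whose log2 CPM followed that of Grem1 most closely over the 12 libraries, among 8331 genes with a mean of at least 10 CPM, were U90926, Ltbp2 and Hmga2 (Pearson's r of 0.992, 0.984 and 0.983). Ltbp2, which encodes a matrix protein of the latent TGF-β binding protein family, averaged 1.33, 10.5 and 67.0 CPM for mono-PSCs, 2W-PSCs and 3W-PSCs, and Hmga2, which encodes an architectural chromatin protein, 77.0, 268 and 777 CPM. For Id1 they were Ghr, Ccnd1 and Tnfrsf1b (r of 0.991, 0.963 and 0.950), which encode the growth hormone receptor, cyclin D1 and a TNF receptor. These correlations describe 12 libraries in 3 clusters by culture, which share depth and scaling, and carry no test.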

How the data were processed

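RNA of mCherry-sorted PSCs from 3 cultures, 4 libraries each, was made into QuantSeq 3′ FWD libraries. Single 75-base reads were checked (FastQC), trimmed and aligned to GRCm38 (STAR, default settings) by the authors, who counted them with featureCounts on Ensembl genes. The deposited table holds whole-number read counts that were not normalised. The strand setting and molecular identifiers are not given in the sources used here, so intervals and limits cover counting error only. The sample number in its name tied each of the 12 columns to a sample (0 were unmatched). Reads of a transcript with a wrong or shared 3′ end are counted low or together; no 75-base window in the last 500 bases of the 9 genes' transcripts occurred in another gene.

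Cultures were compared in pairs with edgeR 4.0.16 (glmQLFit and glmQLFTest; filterByExpr; TMM; only the 8 libraries compared; Benjamini-Hochberg adjusted p under 0.05 over all genes tested), in R 4.3.3. The code was tested on simulated data. Alternatives were DESeq2 1.42.0 and its size factors, no filter, at least 10 counts in every library, all 12 libraries in 1 fit, a replicate block and each library left out. For likeness, a prior count of 2 was added before taking log2 CPM. Positions and exon overlaps come from GENCODE release 21 for mouse.

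The 9 genes, the lists and the tests were chosen with earlier results of these data known. Named besides the 9 were genes of the list of 61 called in any comparison, the gene of each sub-list with the highest mean CPM, and the 3 genes most like Grem1 and Id1. Nog, Chrd, Bmpr1b, Tcf3 and Tcf12 were named after their values were seen. A further gene of the list and an allele of the PCCs are not reported here.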

Additional observations from a re-analysis of the deposited data

Results flagged for a closer look

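Within each culture, the highest and lowest of the 4 libraries was compared with its nearest neighbour by Dixon's ratio for the 9 genes and the called genes of the wider list, which gave 66 groups of 4. Of these, 4 held a library far from the others, and chance flags about 1 in 20 groups. Bmp2 stood out in replicate 4 of the mono-PSCs (1.92 CPM, the others at 0) and in replicate 4 of the 2W-PSCs (1.60 CPM, the others at 0 to 0.159). Bmp3 stood out in replicate 1 of the 2W-PSCs (0.280 CPM, the others at 0). Runx2 was at 50.1 CPM in replicate 2 of the 2W-PSCs, against 24.4 to 26.4 CPM in the other 2W libraries. The first 3 rest on 2 to 16 counts.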

How the results depend on the processing

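No value past the threshold in the comparisons as made changed direction under any alternative. Leaving out 1 library at a time, genes called over the whole table ranged from 497 to 2107 (3W-PSCs against 2W-PSCs, 1230 as reported), 61 to 233 (2W-PSCs against mono-PSCs, 111) and 2228 to 4266 (3W-PSCs against mono-PSCs, 3054). The same fits gave 2 to 4, 1 to 5 and 5 to 6 of the 9 genes, and 1 to 11, 1 to 3 and 10 to 15 genes of the wider list. Without replicate 2 of the 2W-PSCs the whole-table counts rose to 2107 and 233, the 9 genes to 5 (Bmp4 and Id3 joining) in 2W-PSCs against mono-PSCs, and the wider list to 11 (Runx2 and Smad4 joining) and 3 (Bmp3 and Fst joining; 2 without replicate 3 of the mono-PSCs). Without replicate 1 of the mono-PSCs, 4266 genes were called. Whole-table counts fell to 497 to 750 in 3W-PSCs against 2W-PSCs without replicate 4 of the 2W-PSCs or any 3W library, and to 61 to 64 in 2W-PSCs against mono-PSCs without replicate 1 or 4 of the 2W-PSCs or 3 or 4 of the mono-PSCs. In 3W-PSCs against 2W-PSCs, the wider list fell to 3 without replicate 4 of the 2W-PSCs, and to 1, 2 and 4 without replicates 1, 2 and 3 of the 3W-PSCs. In 2W-PSCs against mono-PSCs the 9 genes fell to 1 without replicate 1, 3 or 4 of the 2W-PSCs or replicate 3 or 4 of the mono-PSCs, Grem1 remaining.

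Replicate numbers were tested for pairing, since the groups share them. Correlations of same-numbered libraries' deviations from their culture means were −0.05 to 0.15 (3W-PSCs and 2W-PSCs), 0.099 to 0.34 (2W-PSCs and mono-PSCs) and 0.00 to 0.11 (3W-PSCs and mono-PSCs), so no comparison had every pair over 0.1, and the comparisons as made carry no block. In 2W-PSCs and mono-PSCs all 4 values were above 0 and 3 of 4 replicate numbers had their own number as best match, which is a hint from the data and not from the design. A replicate block gave 752, 135 and 3092 genes, in that order, and 5, 2 and 14 of the wider list, and left the counts of the 9 genes at 3, 3 and 5.

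In 2W-PSCs against mono-PSCs, other settings gave 275 genes (DESeq2), 262 (all 12 libraries in 1 fit), 177 (no filter) and 57 (10 or more counts in each library), and the wider list 3, 2 and 2 in the first 3 of these; DESeq2 size factors and the stricter filter lost Id2. Without a filter, Bmp2 was past the threshold in 3W-PSCs against mono-PSCs, and Id3, Acvr1 (adjusted p = 0.0944) and Rgmb (0.0532) were lost there with all 12 libraries in 1 fit. The cause of these shifts was not tested. Depth limits Bmp2, Bmp3 and Rgmb, whose lowest libraries held 0 or 1 counts.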
